A study of Saccharomyces cerevisiae with 44 samples.

Results

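Yeast builds methionine from inorganic sulfate, and 10 genes of that route were followed here through 6 drug treatments. They are MET3, MET14, MET16, MET5, MET10, MET1, MET8, MET17, MET2 and MET6, taken by systematic name from the 6692 features of the deposited count tables. All 10 were found, and all 10 passed the filter on low counts.

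Sulfate entering the cell is first activated to adenylyl sulfate and then to phosphoadenylyl sulfate, which is reduced to sulfite and on to sulfide. Sulfide is joined to O-acetylhomoserine to give homocysteine, and homocysteine is methylated to methionine. In budding yeast most of these genes are switched on together by the activator Met4, which is brought to their promoters by the DNA-binding proteins Cbf1, Met31 and Met32 and is held in check by the ubiquitin ligase subunit Met30 when sulfur amino acids are plentiful.

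The study grew unsynchronised wild-type cells of the W303 background at 30 °C to an optical density of about 0.3, added an inhibitor of replication or its vehicle, and harvested them for RNA sequencing at a time set for half-maximal inhibition that the labels do not give. In rich medium (YEPD) the groups were HU at 50 mM, MMS at 0.002% and their water vehicle C0, and CPT at 100 µg/mL with its vehicle CC, 1 N NaOH. In synthetic complete medium (SC) they were AD at 50 µg/mL with its vehicle CA, 2% acetone, DOX at 25 µg/mL with its vehicle CD, water, and MTX at 150 µg/mL with its vehicle CM, 0.1 N NaOH. Each of the 11 groups had 2 cultures, each sequenced as 2 technical replicates, giving 44 libraries of 6821178 to 15077216 counted reads. The labels give the agents as abbreviations. HU, MMS, CPT, DOX and MTX commonly stand for hydroxyurea, methyl methanesulfonate, camptothecin, doxorubicin and methotrexate, and AD is not spelled out.

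All values below are normalised read counts in CPM (counts scaled to a library of 1000000 reads, with TMM factors), 1 value per culture after the technical replicates were summed, so n = 2 in every group. Fold changes are log2 ratios of the agent over its vehicle. Their standard error (SE) is the absolute log2 fold change over the square root of F from edgeR's quasi-likelihood test. A gene was called changed at an adjusted p (Benjamini-Hochberg over all 6344 features tested) under 0.05.

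The upstream sequences of these genes were searched for the motifs that Met4's partners are known to bind. A window of 300 bases ending 100 bases before the start codon was read for every gene from the RefSeq yeast reference genome, whose coordinates are those of sacCer3. The motifs were searched on both strands: CACGTG, the core bound by Cbf1, and AAACTGTG, the core bound by Met31 and Met32. CACGTG was present in 9 of the 10 windows, against 4.29% of the 6662 windows of all features, and it occurred 2 times in MET3, MET5 and MET10. AAACTGTG was present in MET3, MET1, MET17 and MET6, against 1.62% of all windows, and both motifs stood together in MET3, MET1 and MET17, against 0.23% of all windows. MET6 was the member with no CACGTG in this window. The matches did not overlap each other. A match describes the letters and not a bound site. Windows are printed for the 4 members with the smallest p in any comparison of an agent with its vehicle, as examples of the motif arrangements. They were picked by those p-values, and no relation between the motifs and the responses was tested. Capitals mark the motif letters, and AAACTGTG on the opposite strand reads CACAGTTT.
MET10 (chrVI:212912-213211, + strand) reaches into the neighbouring reading frame YFR029W and holds the CACGTG pair.
MET10: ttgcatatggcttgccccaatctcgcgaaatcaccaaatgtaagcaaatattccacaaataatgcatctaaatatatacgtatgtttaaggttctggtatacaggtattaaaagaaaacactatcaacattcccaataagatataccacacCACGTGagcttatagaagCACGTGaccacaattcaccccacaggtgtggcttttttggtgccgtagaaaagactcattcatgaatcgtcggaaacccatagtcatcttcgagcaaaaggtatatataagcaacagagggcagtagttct
MET1 (chrXI:571212-571511, + strand) holds 1 copy of each motif.
MET1: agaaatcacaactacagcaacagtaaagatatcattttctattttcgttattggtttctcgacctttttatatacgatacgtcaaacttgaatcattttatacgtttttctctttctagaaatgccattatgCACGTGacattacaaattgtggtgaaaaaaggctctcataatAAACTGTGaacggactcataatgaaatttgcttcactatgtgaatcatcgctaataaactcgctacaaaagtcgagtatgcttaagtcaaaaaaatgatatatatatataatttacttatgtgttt
MET3 (chrX:455839-456138, + strand) holds a CACGTG pair far from the start codon, and AAACTGTG on the opposite strand.
MET3: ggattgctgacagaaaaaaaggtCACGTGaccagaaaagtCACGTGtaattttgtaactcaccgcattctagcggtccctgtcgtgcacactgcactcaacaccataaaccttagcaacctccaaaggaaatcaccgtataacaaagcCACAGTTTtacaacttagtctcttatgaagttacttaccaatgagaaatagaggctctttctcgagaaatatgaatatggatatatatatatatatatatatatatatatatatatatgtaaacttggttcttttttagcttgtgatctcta
MET16 (chrXVI:877733-878032, - strand) holds a single CACGTG.
MET16: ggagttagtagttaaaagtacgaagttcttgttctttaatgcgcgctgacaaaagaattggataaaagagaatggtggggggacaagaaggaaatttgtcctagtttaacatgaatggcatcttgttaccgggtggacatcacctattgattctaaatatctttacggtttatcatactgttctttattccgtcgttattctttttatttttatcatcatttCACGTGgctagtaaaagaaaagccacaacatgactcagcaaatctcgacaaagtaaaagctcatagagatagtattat

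**Figure D1:**
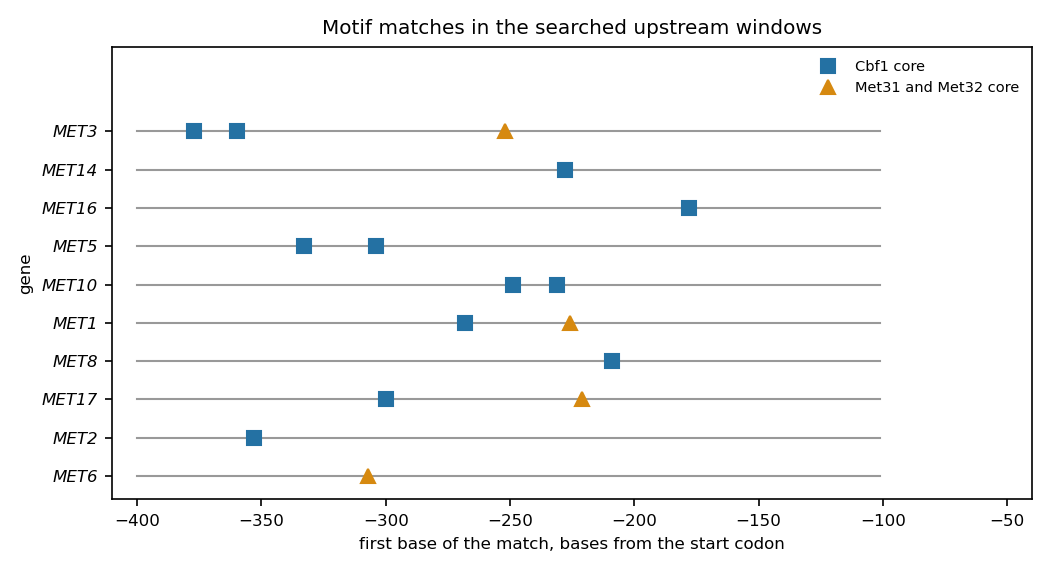
Positions of the motif matches in the upstream windows of the 10 genes. The x axis is the distance of the first base of each match from the start codon, in bases, grey lines are the searched windows, squares are the Cbf1 core and triangles the Met31 and Met32 core. The Cbf1 core lies between -377 and -178 in 9 genes, and MET6 has the Met31 and Met32 core alone.

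AD and DOX raised most of the pathway, MTX raised MET3 and lowered MET2, MMS lowered MET6 and MET17, and neither HU nor CPT moved a member past the threshold. With AD, 7 of 10 members were called higher and 0 lower, against 2.02% and 1.12% of all features tested. With DOX, 8 were called higher and 0 lower, against 21.0% and 20.2% of all features. With MTX, 1 was called higher and 1 lower, against 10.8% and 9.0% of all features, so the MTX counts stood near the background. With MMS, 0 were called higher and 2 lower, against 6.07% and 4.70% of all features. The median log2 fold change of the 10 members was 0.87 with AD, 1.20 with DOX, 0.26 with MTX, -0.38 with HU, -0.30 with MMS and -0.15 with CPT. Across all features tested the median stayed between -0.03 and 0.006 in these 6 comparisons. With AD and with DOX, all 10 members lay above 0.

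**Figure D2:**
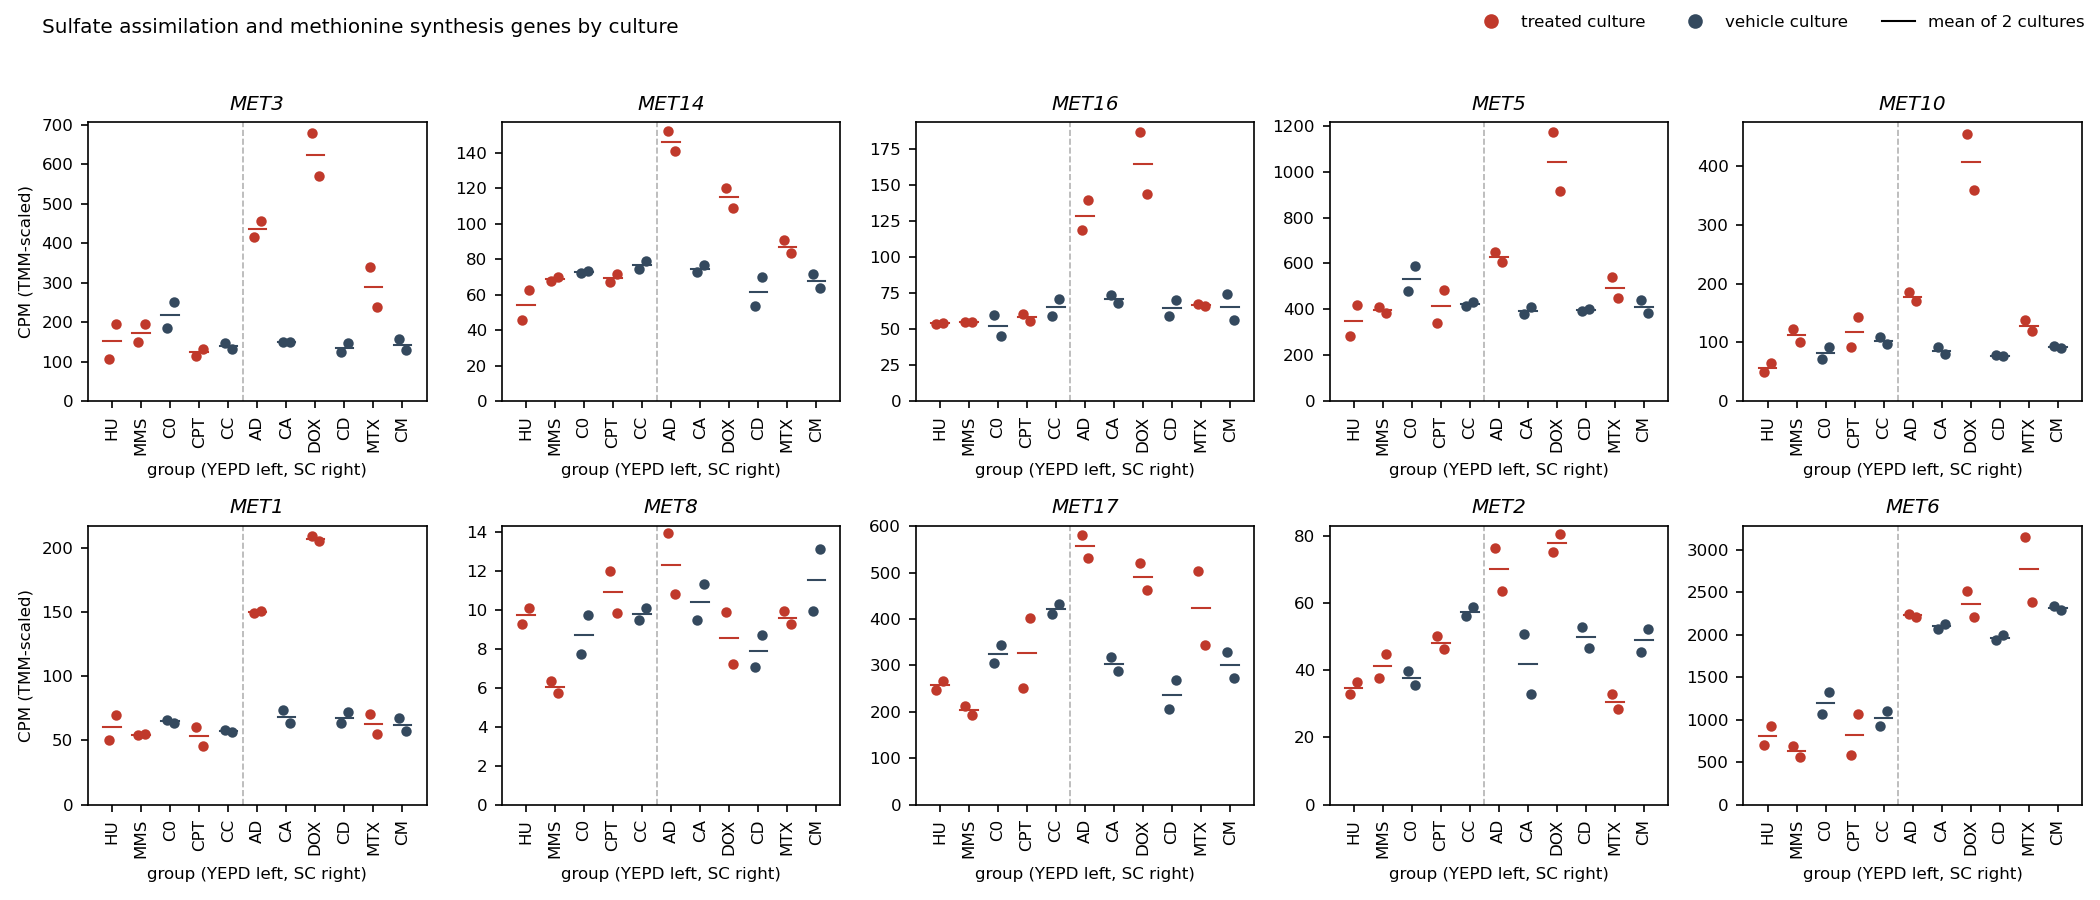
Normalised read count (CPM) of each gene in every culture. The x axis gives the groups, YEPD left of the dashed line and SC right of it; points are cultures (red treated, blue vehicle), and bars are the mean of 2 cultures. MET3, MET16, MET5, MET10 and MET1 stand highest in DOX cultures, and MET14 and MET17 in AD cultures. MET6 is higher in every SC culture than in every YEPD culture.

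MET3 (YJR010W, chrX:456239-457774) encodes ATP sulfurylase, the enzyme of the first step. Its 2 AD cultures had 415 and 456 CPM, against 149 and 150 CPM in CA cultures. The DOX cultures had 678 and 569 CPM, against 124 and 146 CPM in CD cultures. The MTX cultures had 339 and 238 CPM, against 158 and 128 CPM in CM cultures. In all 3 pairs every treated culture lay above every vehicle culture. The log2 fold change was 1.54 with AD (SE 0.25, adjusted p 0.00467 by edgeR), 2.21 with DOX (SE 0.25, adjusted p 9.45e-06) and 1.02 with MTX (SE 0.25, adjusted p 0.00831). It was the one member called higher with each of these agents. In YEPD its level was 106 and 196 CPM with HU and 149 and 196 CPM with MMS, against 184 and 252 CPM in their shared vehicle C0, and the groups overlapped. With CPT it was 115 and 132 CPM, against 147 and 132 CPM in CC cultures. Ordered by mean, DOX (623 CPM) stood above AD (436) and AD above MTX (289), with no overlap of cultures between these groups; MTX (238 to 339) overlapped the next group, C0 (184 to 252).

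MET14 (YKL001C, chrXI:438777-439385) encodes adenylyl sulfate kinase, the second step. AD cultures had 152 and 141 CPM, against 72.6 and 76.8 CPM in CA cultures. DOX cultures had 120 and 109 CPM, against 53.5 and 69.9 CPM in CD cultures. Both treated pairs lay above their vehicles, and MET14 and MET17 were the members whose mean was higher with AD than with DOX among those called with both. The log2 fold change was 0.97 with AD (SE 0.15, adjusted p 0.00454 by edgeR) and 0.89 with DOX (SE 0.16, adjusted p 0.000309). MTX cultures had 90.6 and 83.5 CPM, against 71.6 and 63.7 CPM in CM cultures; the groups did not overlap, but the log2 fold change of 0.36 had an adjusted p of 0.104.

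MET16 (YPR167C, chrXVI:876847-877632) encodes phosphoadenylyl sulfate reductase, which makes sulfite with electrons from thioredoxin. AD cultures had 119 and 140 CPM, against 73.4 and 68.2 CPM in CA cultures. DOX cultures had 187 and 144 CPM, against 58.9 and 70.5 CPM in CD cultures. The log2 fold change was 0.87 with AD (SE 0.18, adjusted p 0.0149 by edgeR) and 1.35 with DOX (SE 0.18, adjusted p 2.86e-05). In every other group the cultures ranged between 45.3 and 74.5 CPM, with MTX at 67.7 and 65.8 CPM inside the CM range of 56.4 to 74.5 CPM.

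MET5 and MET10 encode the beta and alpha subunits of sulfite reductase, which turns sulfite into sulfide. MET10 (YFR030W, chrVI:213312-216419) reached 455 and 360 CPM in DOX cultures, against 78.1 and 76.0 CPM in CD cultures. Its log2 fold change of 2.40 (SE 0.21, adjusted p 7.86e-07 by edgeR) was the largest of any member in the 6 comparisons of an agent with its vehicle. AD cultures had 185 and 171 CPM, against 91.3 and 80.3 CPM in CA cultures, a log2 fold change of 1.05 (SE 0.20, adjusted p 0.0116). MET5 (YJR137C, chrX:678957-683285) had 1172 and 916 CPM in DOX cultures, against 394 and 400 CPM in CD cultures, a log2 fold change of 1.40 (SE 0.19, adjusted p 3.78e-05). In AD cultures MET5 had 648 and 606 CPM, against 378 and 410 CPM in CA cultures. Those groups did not overlap either, yet the log2 fold change of 0.67 (SE 0.19) missed the threshold at an adjusted p of 0.0581.

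Per kilobase, MET10 transcripts were fewer than MET5 transcripts in every culture, and the ratio of the pair differed between groups. The ratio of CPM per kilobase, MET10 over MET5, was 0.541 and 0.547 in DOX cultures, against 0.276 and 0.265 in CD cultures. It was 0.397 and 0.394 in AD cultures, against 0.336 and 0.273 in CA cultures. With MTX it was 0.356 and 0.367, against 0.297 and 0.324 in CM cultures. In each SC pair the treated cultures lay above the vehicle cultures, and DOX stood above all other groups. In YEPD the ratio was 0.419 and 0.368 with MMS and 0.237 and 0.217 with HU, against 0.209 and 0.219 in C0 cultures. Both CPT cultures, at 0.374 and 0.411, also lay above both CC cultures, at 0.366 and 0.314. These ratios were given no test.

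**Figure D3:**
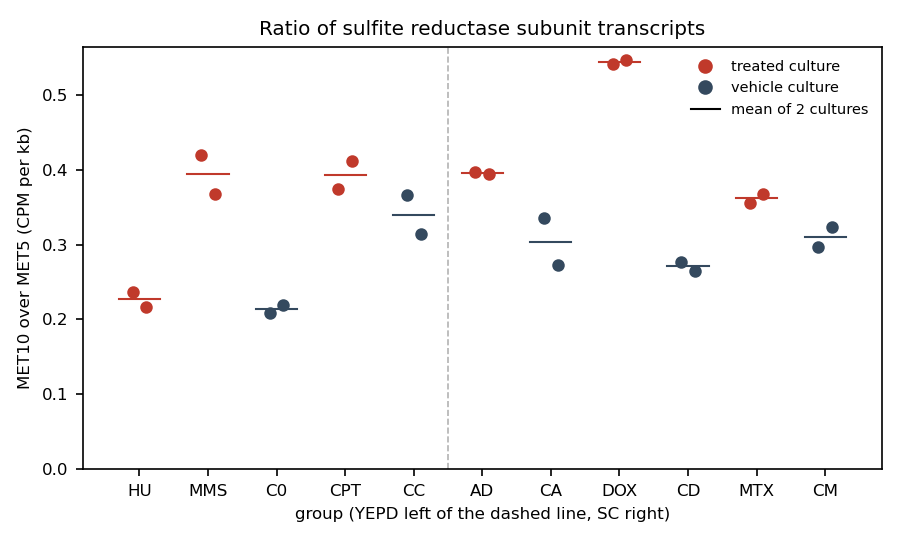
Ratio of MET10 to MET5 transcripts, each as CPM per kilobase of coding length, in every culture. The x axis gives the groups, points are cultures (red treated, blue vehicle), and bars are the mean of 2 cultures. The mean ratio is highest in DOX (0.544) and lowest in C0 (0.214).

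MET1 and MET8 make siroheme, the iron-containing cofactor of sulfite reductase: Met1 is the methyltransferase of the first step, and Met8 carries out the last steps. MET1 (YKR069W, chrXI:571612-573393) had 149 and 151 CPM in AD cultures, against 73.5 and 63.4 CPM in CA cultures, a log2 fold change of 1.13 (SE 0.17, adjusted p 0.00377 by edgeR). DOX cultures had 209 and 205 CPM, against 63.4 and 72.0 CPM in CD cultures, a log2 fold change of 1.61 (SE 0.18, adjusted p 6.73e-06). MTX cultures, at 70.2 and 55.1 CPM, covered the range of CM cultures at 67.4 and 57.0 CPM. MET8 (YBR213W, chrII:650368-651192) stayed between 5.71 and 13.9 CPM in every culture and was called in none of the 6 comparisons. Its log2 fold change was 0.25 with AD and 0.12 with DOX, each with an SE of at least 0.21. This was the lowest-counted member, and technical replicates of a culture differed by up to 0.86 on the log2 scale in it, against a median of 0.148 over all members and cultures.

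MET17 (YLR303W, chrXII:732542-733876) encodes O-acetylhomoserine sulfhydrylase, which fixes sulfide into homocysteine. AD cultures had 582 and 531 CPM, against 318 and 287 CPM in CA cultures. DOX cultures had 520 and 463 CPM, against 206 and 268 CPM in CD cultures. Both treated pairs lay above their vehicles, with log2 fold changes of 0.88 with AD (SE 0.20, adjusted p 0.0283 by edgeR) and 1.05 with DOX (SE 0.21, adjusted p 0.000784). In MMS cultures the level was 212 and 193 CPM, against 306 and 344 CPM in C0 cultures. MET17 fell by 0.68 on the log2 scale there (SE 0.20, adjusted p 0.0409). The CPT cultures differed from each other, with 252 and 403 CPM, against 410 and 433 CPM in CC cultures.

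MET2 (YNL277W, chrXIV:117349-118809) encodes homoserine O-acetyltransferase, which supplies the carbon acceptor. Its reading frame overlaps that of YNL276C by 379 bases, and reads that touch both were not counted, so its level is uncertain. AD cultures had 76.4 and 63.6 CPM, against 50.8 and 32.9 CPM in CA cultures, a log2 fold change of 0.74 (SE 0.18, adjusted p 0.0347 by edgeR). DOX cultures had 75.1 and 80.4 CPM, against 52.9 and 46.6 CPM in CD cultures, a log2 fold change of 0.64 (SE 0.18, adjusted p 0.00984). MTX went the other way: 33.0 and 28.3 CPM, against 45.5 and 52.1 CPM in CM cultures, a log2 fold change of -0.67 (SE 0.18, adjusted p 0.0167). MET2 was the one member called higher with AD and DOX and lower with MTX.

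MET6 (YER091C, chrV:339864-342167) encodes methionine synthase, which methylates homocysteine with a methyl group from a folate. AD cultures had 2252 and 2207 CPM, against 2074 and 2125 CPM in CA cultures. DOX cultures had 2514 and 2215 CPM, against 1936 and 1999 CPM in CD cultures. MTX cultures had 3160 and 2385 CPM, against 2336 and 2291 CPM in CM cultures. In none of the 3 SC pairs was it called: the log2 fold changes were 0.09, 0.26 and 0.26, with SE 0.22 each. MMS lowered it to 691 and 564 CPM, against 1067 and 1327 CPM in C0 cultures, a log2 fold change of -0.93 (SE 0.22, adjusted p 0.0110 by edgeR). HU cultures had 699 and 924 CPM, also below both C0 cultures, but the log2 fold change of -0.56 had an adjusted p of 0.203. The 2 CPT cultures stood apart at 583 and 1065 CPM, against 926 and 1104 CPM in CC cultures. Per kilobase, MET6 was the most abundant member in every group, from a mean of 272 CPM per kilobase with MMS to 1203 with MTX.

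**Figure D4:**
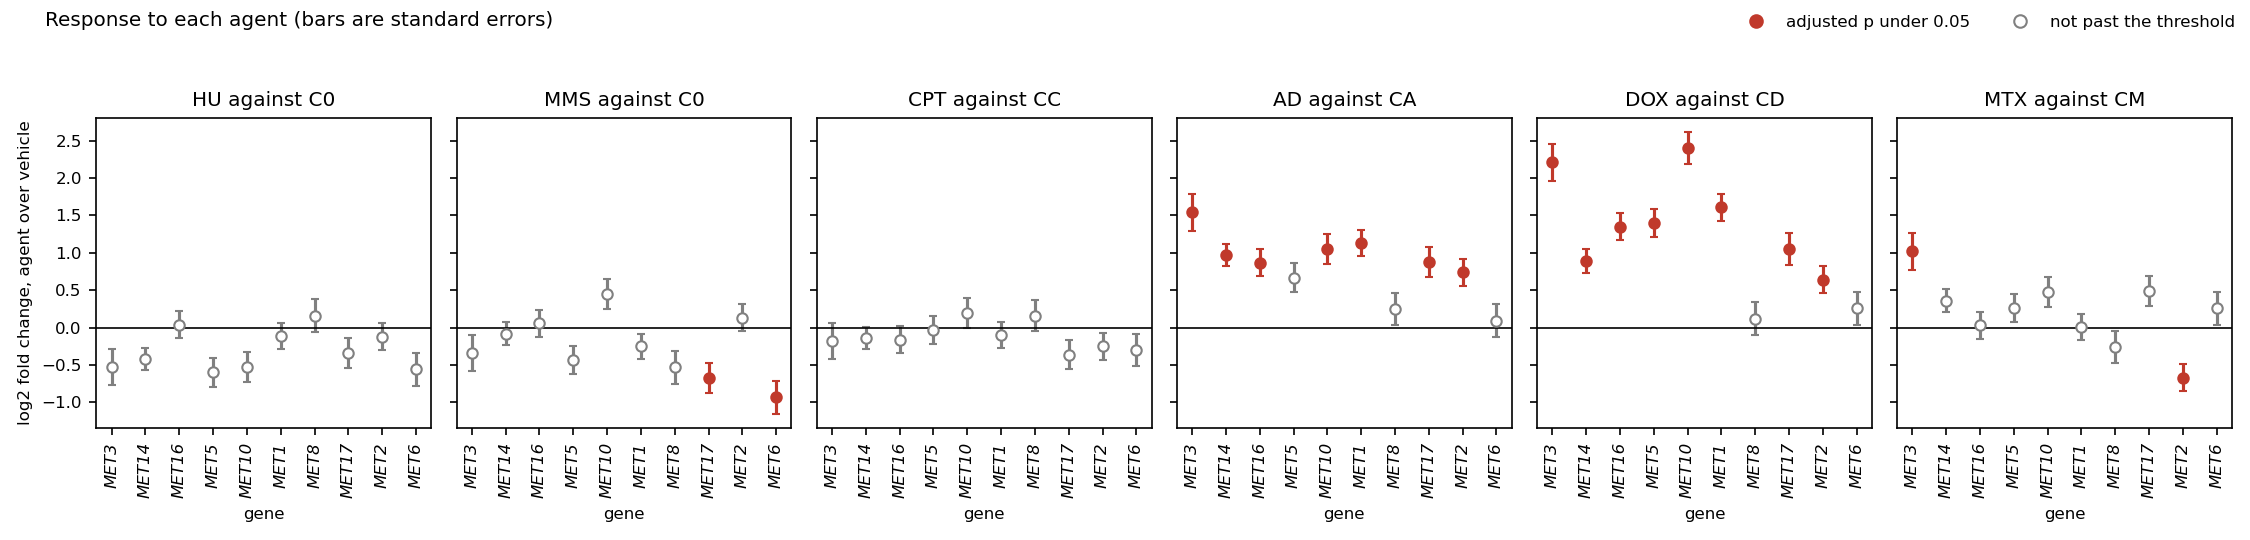
Log2 fold change of each gene, agent over vehicle, in the 6 comparisons. The y axis is the log2 fold change, points are edgeR estimates over 2 cultures against 2, bars are standard errors, and filled red points have an adjusted p under 0.05. Filled points above 0 number 7 with AD, 8 with DOX and 1 with MTX, and those below 0 number 2 with MMS and 1 with MTX.

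The AD calls depended on the fit. The DESeq2 Wald test called 8 members, with 428 of all features called. An edgeR fit that blocked on culture numbers, whose meaning is not stated, also called 8, with 892 of all features called. Called members were 7 under DESeq2's size factors, 7 under no filter on low counts and 6 from the first technical replicates alone. With AD and CA cultures fitted alone no member was called by edgeR, and no other feature was either. In that fit 8 members had an unadjusted p under 0.05 by edgeR. With the second technical replicates alone 1 member was called, and 17 of all features were, against 199 with all libraries. Fewer members were called when any 1 of the 4 cultures was left out. MET1 and MET14 kept their calls without any 1 of the 4 cultures. MET3 lost its call without AD culture 2, and MET10 without AD culture 2 or CA culture 2. MET16 kept its call only without AD culture 1, and MET2 only without CA culture 1. MET17 lost its call without any 1 of the 4 cultures (adjusted p 0.0735 to 0.125 by edgeR). The sign stayed positive for the 7 called members in all of these fits. The DOX calls were 8 in each other fit, and 7 to 8 when 1 culture was left out, MET2 being the member lost. DOX libraries held 8067611 to 8911112 counts and CD libraries 10787191 to 12896932 counts, and 41.2% of all features were called in that comparison; the part of either in the result was not tested. For MMS, MET17 lost its call without any 1 of the 4 cultures, and MET6 lost it without MMS culture 2 or C0 culture 2. For MTX, MET3 lost its call without MTX culture 1 or CM culture 2, and MET2 without MTX culture 2 or CM culture 2.

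With HU, 8 of the 10 members lay below 0, down to -0.60 for MET5 (SE 0.19, adjusted p 0.0950 by edgeR), and none was called (2.63% of all features were called higher and 0.930% lower). At an unadjusted p under 0.05 by edgeR there were 5 members with HU, against 1018 of all 6344 features. DESeq2 called 0 members and 359 features. With CPT the members ranged from -0.36 to 0.19 and none was called by edgeR or DESeq2. There edgeR called 1.91% of all features higher and 0.898% lower, and DESeq2 called 318 features. At an unadjusted p under 0.05 by edgeR there were 0 members with CPT, against 985 of all features. HU and MMS share the C0 cultures. Compared directly, HU cultures had less MET10 than MMS cultures, 48.6 and 64.9 CPM with HU against 123 and 101 CPM with MMS. That difference, -0.98 on the log2 scale (SE 0.20, adjusted p 0.00846), was the 1 member called between them (2.41% of all features were called higher in HU and 2.11% lower). It was not called without HU culture 1 or without MMS culture 1.

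The 3 SC agents were compared by the difference of their responses, each agent against its own vehicle. The MTX response lay below the DOX response in 6 members (10.1% of all features were called higher and 11.3% lower). These were MET10 (difference -1.92 on the log2 scale, SE 0.29, adjusted p 0.000254 by edgeR), MET1 (-1.60), MET16 (-1.33), MET2 (-1.31), MET3 (-1.19) and MET5 (-1.13), the SE being 0.25 to 0.34 for the other 5. MET14 (-0.53), MET17 (-0.56), MET8 (-0.38) and MET6 (-0.00) did not pass. MET3 was lost from these without MTX culture 2, CM culture 1, DOX culture 1 or CD culture 1. The AD response lay below the DOX response in MET10 alone (-1.35, SE 0.28, adjusted p 0.0129, with 2.36% of all features called higher and 2.92% lower). This call was lost without DOX culture 1 and without either CD culture. For the 5 members MET14, MET17, MET2, MET6 and MET8, the difference between the AD and DOX responses was at most 0.18 in size, with an SE of 0.22 to 0.31. The AD response exceeded the MTX response in MET2 (1.41, SE 0.26, adjusted p 0.00393), MET1 (1.12, SE 0.24, adjusted p 0.0109) and MET16 (0.84, SE 0.25, adjusted p 0.0465), where 4.21% of all features were called higher and 4.08% lower. None of these 3 was called when AD, CA, MTX and CM cultures were fitted alone, with 5 members at an unadjusted p under 0.05, and 1 was called without CM culture 1 and 1 without MTX culture 2. Leaving out 1 culture at a time, MET2 kept its call in 8 of 8 fits, MET1 in 6 and MET16 in 2, and MET16 also lost it with DESeq2's size factors.

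**Figure D5:**
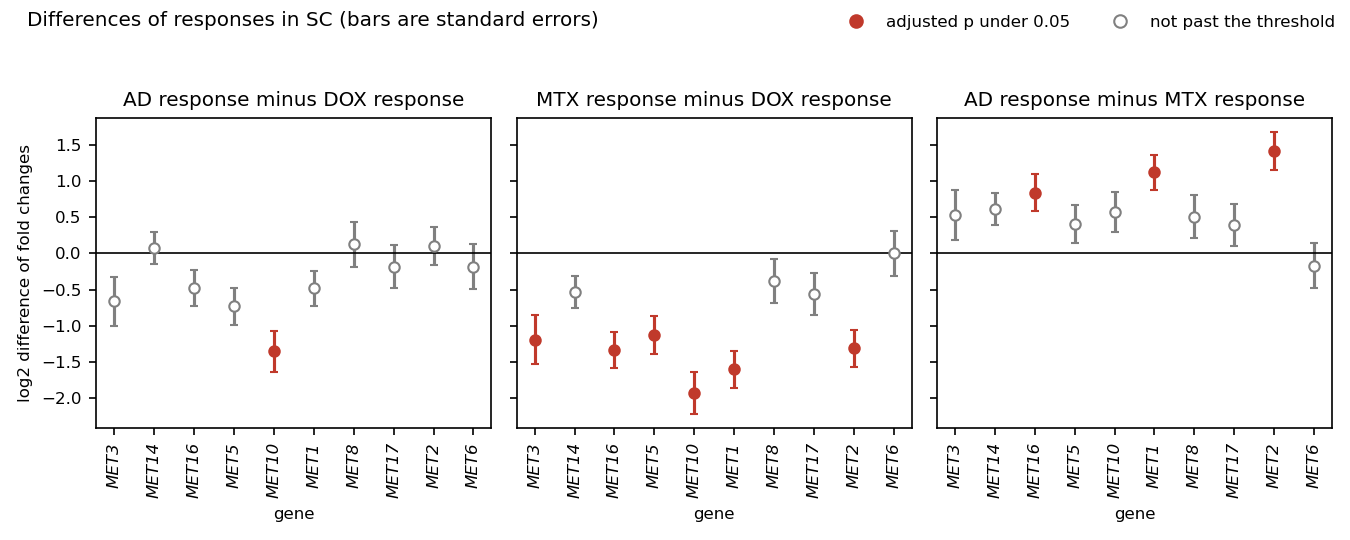
Differences between the responses to the 3 SC agents. The y axis is the log2 fold change of one agent minus that of the other, points are edgeR estimates, bars are standard errors, and filled red points have an adjusted p under 0.05. MET10 is called lower in AD than DOX, 6 genes are called lower in MTX than DOX, and MET16, MET1 and MET2 are called higher in AD than MTX.

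Between the vehicles, MET6 was the one member called by edgeR. CD cultures (SC, water) had 1936 and 1999 CPM of MET6, against 1067 and 1327 CPM in C0 cultures (YEPD, water). The log2 fold change was 0.72 (SE 0.22, adjusted p 0.0320 by edgeR), and this was the 1 member called (8.87% of all features were called higher in SC and 11.2% lower). The call was lost when any 1 of the 4 cultures was left out. Medium and the other differences between these sets of cultures cannot be told apart. MET3 went the other way, with 124 and 146 CPM in CD cultures against 184 and 252 CPM in C0 cultures, and missed the threshold at an adjusted p of 0.0560. It was called lower by the DESeq2 Wald test (adjusted p 0.0331), with CD and C0 cultures fitted alone (adjusted p 0.0182 by edgeR) and without C0 culture 1 (adjusted p 0.0388 by edgeR), and in the last of these MET6 was not called. Among the solvents edgeR called no member. For CC against C0 it called 0.189% of all features higher and 0.0315% lower. There 2 members had an unadjusted p under 0.05 by edgeR, as had 1085 of all 6344 features. DESeq2 called 1 member and 223 features in that comparison. CA against CD had 0 members at an unadjusted p under 0.05 and CM against CD had 1. Of all features, 209 and 201 had such a p. For both, edgeR called 0% of all features and DESeq2 called no member.

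Among themselves the 10 genes fell into a tight set and 3 looser members. Likeness was measured by Pearson's r of log2 CPM over the 22 cultures, centred within each medium, so that it shares the treatments already described. Against the mean of the other members r was 0.88 for MET5, 0.87 for MET14, 0.83 for MET16, MET1 and MET17, 0.82 for MET3 and 0.81 for MET10. It was 0.57 for MET2, 0.31 for MET6 and 0.12 for MET8. The closest pair was MET16 and MET1 at 0.92. Of 5375 other features with a mean of at least 10 CPM, the 8 most like the members' mean were CCP1 (0.89), YHR112C (0.89), LAT1 (0.89), PRO3 (0.88), OST1 (0.87), CPR1 (0.87), HTS1 (0.87) and YMR099C (0.85). These 8 features were as close to the members' mean as the tight set was to the mean of the other members. Such likeness was therefore not particular to the members. With DOX the log2 fold changes of the 8 features ran from 0.61 to 1.15, and with AD from 0.22 to 0.63.

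Around the pathway, 37 further genes of sulfur metabolism were followed, of which 36 were tested. With AD, 2 were called higher and 0 lower, 11 were called higher and 6 lower with DOX, 5 higher and 6 lower with MTX, and 0 higher and 3 lower with MMS. Of all features, 2.02% were called higher and 1.12% lower with AD, 21.0% and 20.2% with DOX, 10.8% and 9.0% with MTX, and 6.07% and 4.70% with MMS. Against these shares the DOX, MTX and MMS counts of a list this size are not read as a result about it. With HU and with CPT edgeR called 0, with 2 and 5 of them at an unadjusted p under 0.05. Of all 6344 features, 1018 and 985 had such a p.

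Of the transsulfuration genes, which interconvert homocysteine and cysteine, CYS3 (cystathionine gamma-lyase) was called higher with all 3 SC agents. It had 162 and 152 CPM in AD cultures, against 99.5 and 117 CPM in CA cultures. DOX cultures had 272 and 273 CPM, against 95.5 and 107 CPM in CD cultures. MTX cultures had 184 and 190 CPM, against 114 and 116 CPM in CM cultures. The log2 fold changes were 0.54 with AD (adjusted p 0.0437 by edgeR), 1.43 with DOX (adjusted p 2.15e-06) and 0.71 with MTX (adjusted p 0.00236). STR3 (cystathionine beta-lyase) was called higher with DOX (1.54) and MTX (1.15). STR2 (cystathionine gamma-synthase) was called higher with AD (0.54, adjusted p 0.0408 by edgeR) and DOX (0.52). CYS4 (cystathionine beta-synthase) fell by 0.37 on the log2 scale with DOX. With AD and CA cultures fitted alone edgeR called no feature, so neither CYS3 nor STR2 was called there.

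Among uptake genes SUL2, a sulfate permease, rose with DOX to 132 and 120 CPM, against 46.3 and 45.9 CPM in CD cultures (log2 fold change 1.45, SE 0.23, adjusted p 0.000133 by edgeR). Of the 5 Met4 regulators tested, MET32 was called higher (0.69) and CBF1 lower (-1.11) with DOX. Of all features 21.0% were called higher and 20.2% lower, so these counts stood near the background. CBF1 had 69.0 and 83.3 CPM in DOX cultures, against 156 and 173 CPM in CD cultures. None of the 5 regulators was called with AD or MTX. TRX2, a thioredoxin that can serve Met16, was called higher with DOX (1.70) and MTX (0.80), as was TRX1 (0.53 and 0.46). Thioredoxin reductase TRR1 was called higher with DOX (0.35).

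Of the 6 genes of methyl and homoserine supply, edgeR called 1 higher and 1 lower with MTX, MET13 and HOM2, where 10.8% and 9.0% of all features were. MET13, a methylenetetrahydrofolate reductase that makes the methyl donor of Met6, had 98.9 and 114 CPM in MTX cultures, against 42.4 and 48.6 CPM in CM cultures (log2 fold change 1.23, SE 0.16, adjusted p 0.000104 by edgeR). With DOX it was called lower (-0.47), and the MTX response exceeded the DOX response by 1.70 (adjusted p 0.000105). AD minus MTX was -1.36 for it (adjusted p 0.00211). MET22, the phosphatase that removes the by-product of sulfate reduction, had 167 and 139 CPM in MTX cultures, against 284 and 297 CPM in CM cultures (log2 fold change -0.92, adjusted p 0.000739). HOM2, of homoserine synthesis, fell by 0.70 on the log2 scale with MTX. Of 6 genes for other sulfur sources, 4 were called lower with MTX, where 9.0% of all features were, and 0 in either direction with AD, DOX, HU, MMS or CPT by edgeR: OPT1, a glutathione and peptide transporter (-1.50), YCT1, a cysteine transporter (-0.69), JLP1, a sulfonate dioxygenase (-0.60), and BDS1, a sulfatase (-0.51).

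Of the 5 genes of the S-adenosylmethionine cycle, 2 were called higher and 2 lower with DOX. Of all features 21.0% and 20.2% were, so these counts are not read as a result about the cycle. SAM2, an S-adenosylmethionine synthetase, had 99.6 and 89.8 CPM in DOX cultures, against 164 and 150 CPM in CD cultures (log2 fold change -0.73, adjusted p 0.00264 by edgeR), and SAH1, which breaks down S-adenosylhomocysteine, fell by 0.58 on the log2 scale. The homocysteine methyltransferase genes MHT1 (0.83) and SAM4 (0.51) were called higher, SAM4 with a near-identical copy, YMR321C, that could share its reads. HOM3 (-0.48) and HOM6 (0.51), both of homoserine synthesis, were called in opposite directions with DOX. With MMS the called genes were SAM2 (-0.65) and the permease genes MUP1 (-0.59, methionine) and MMP1 (-0.82, S-methylmethionine). Between the media, CD cultures had more STR2 (1.03), SAM3 (0.99) and SAM2 (0.72) and less CYS3 (-0.61) than C0 cultures, the 4 neighbours called there.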

How the data were processed

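RNA was extracted with hot phenol and sequenced as total RNA, per the labels' protocols. The authors deposited raw counts per feature from featureCounts 1.6.0, per the file headers, on the sacCer3 annotation. They used no option for strand, pairs or reads that overlap several features. The headers name alignments from Bowtie2 in local mode and carry the tags mskDup, pp and non-redundant. These tags are not explained there, so the handling of duplicate reads cannot be told from them. Strand was not used in counting, so a gene and its antisense partner cannot be told apart. The authors also deposited tables of log2 fold changes with p-values and base means. These were used here only for counts of members and of all features past the threshold. Of the features, 96.6% have lengths that are multiples of 3, so lengths are coding lengths, and 6000 of 6008 matched RefSeq coordinates.

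Technical replicates were summed per culture (none was identical or within counting noise of its partner). edgeR 4.0.16 in R 4.3.3 fitted 1 mean per group to all 22 cultures after filterByExpr (minimum count 10, minimum total 15) and TMM scaling, with robust quasi-likelihood dispersions (common biological coefficient of variation 0.156). The alternatives were DESeq2 1.42.0, its size factors, no filter, the compared groups alone, the culture number as a block, leaving out each culture, and, added after seeing the data, the first or second technical replicates alone. P-values rest on 2 cultures a group, and CPM precision on the depth given in the report. Members, lists, windows and motifs were chosen with earlier results of these data known. Genes named were the 10 members, listed neighbours past the threshold and the 8 features most like the members. One library's description gave another number than its title; the title was followed. The same culture numbers in a treatment and its vehicle have no stated meaning, so they were not used as pairs.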

Additional observations from a re-analysis of the deposited data

Results flagged for a closer look

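In each group of 4 libraries the highest or lowest library was compared with the others, for 10 members in 11 groups. Of these 110 sets, 4 had a library far from the rest. Chance flags about 1 in 20 sets of 4 independent values, a rate that need not hold here, since the 4 libraries are 2 technical replicates of each of 2 cultures. MET16 had 81.1 CPM in library 2 of CC culture 2, against 57.3 to 60.6 CPM in the other CC libraries. MET17 had 580 CPM in library 2 of DOX culture 1, against 455 to 471 CPM in the others. MET2 had 30.4 CPM in library 2 of MMS culture 1, against 43.9 to 45.5 CPM in the others, and 41.9 CPM in library 2 of CD culture 2, against 51.9 to 53.0 CPM in the others.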

How the results depend on the processing

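The counts of called members were within 1.5 times of the reported ones with DESeq2's size factors and with no filter on low counts, in all 14 comparisons. With the DESeq2 Wald test, CD against C0 gave 2, MET6 higher and MET3 lower, and CC against C0 gave 1. Of all features it called 1558 and 223, against 1274 and 14 in the reported fit. With the compared groups fitted alone, AD against CA gave 0, MTX against CM 5 and CD against C0 2 (again MET6 and MET3). The AD response minus the MTX response gave 0. The fit for AD and CA called no feature at all, against 199 in the reported fit. All features called were 2261 for MTX against CM (1259 in the reported fit), 1646 for CD against C0 (1274) and 194 for AD minus MTX (526). With the culture number as a replicate block, HU against C0 gave 2 and the AD response minus the DOX response 3. Of all features 552 and 975 were called there, against 226 and 335 in the reported fit. The log2 CPM difference of culture 1 minus culture 2 was correlated between each agent and its vehicle over all tested features. Pearson's r of these differences ran from -0.24 for MTX to 0.71 for AD. The block changed no other count by more than 1.5 times. With the first technical replicates alone, HU against C0 gave 1, MMS against C0 1 and CD against C0 2. Of all features 262, 778 and 1766 were called there, against 226, 683 and 1274 in the reported fit. With the second alone, AD against CA gave 1, MMS against C0 0, MTX against CM 1, CD against C0 0 and HU against MMS 0. The AD response minus the DOX response gave 0, as did the AD response minus the MTX response. In that order, 17, 401, 754, 430, 155, 47 and 113 of all features were called. The reported fit called 199, 683, 1259, 1274, 287, 335 and 526. The cause was not tested. Leaving out 1 culture at a time, where the lone culture left is assumed to vary like the other groups, the counts ran from 2 to 5 for AD, 7 to 8 for DOX, 0 to 2 for MTX, 0 to 1 for MMS, 0 to 1 for HU, 0 to 1 for CD against C0 (the 1 being MET3, lower), 0 to 1 for HU against MMS, 0 to 1 for AD minus DOX, 5 to 6 for MTX minus DOX and 1 to 3 for AD minus MTX; CPT and the solvents stayed at 0.

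No member's log2 fold change turned sign in a comparison where it was called. Without 1 culture, uncalled values turned within these ranges: with HU, MET8 -0.00 to 0.35, MET16 -0.12 to 0.26 and MET1 -0.37 to 0.11; with MMS, MET16 -0.11 to 0.27 and MET2 -0.01 to 0.26; with CPT, MET6 -0.80 to 0.07, MET5 -0.31 to 0.20, MET10 -0.17 to 0.47 and MET1 -0.32 to 0.08; with DOX, MET8 -0.13 to 0.33; with MTX, MET1 -0.17 to 0.18 and MET16 -0.16 to 0.27. With the first technical replicates, MET6 with AD was -0.00 and MET1 with MTX -0.01. With the second, MET16 was -0.02 with HU and -0.07 with MMS, MET2 -0.04 with MMS, and MET8 -0.07 and MET5 0.09 with CPT. At 5.71 to 13.9 CPM, MET8 is the member whose changes depth limits most.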

Other observations

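At an adjusted p under 0.05, the authors' deposited table listed 8 members higher with AD and 9 with DOX, 4 higher and 1 lower with MTX, 1 higher and 4 lower with MMS, 4 lower with HU and 0 with CPT. Over all features the authors' deposited table listed 1120 past that threshold with AD, 3874 with DOX, 2489 with MTX, 1900 with MMS, 1118 with HU and 735 with CPT, more than edgeR called here in each comparison. edgeR here called 7 higher with AD, 8 higher with DOX, 1 higher and 1 lower with MTX, 2 lower with MMS, and 0 with HU and with CPT.

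The summed level of the 10 members was 4592 and 4477 CPM in AD cultures, against 3291 and 3304 CPM in CA cultures. In DOX cultures it was 5940 and 5067 CPM, against 2973 and 3156 CPM in CD cultures. In MTX cultures it was 4950 and 3776 CPM, against 3625 and 3408 CPM in CM cultures, so the groups did not overlap in any SC pair. HU cultures had 1578 and 2102 CPM and MMS cultures 1805 and 1667 CPM, against 2352 and 2830 CPM in C0 cultures. CPT cultures had 1632 and 2458 CPM, against 2262 and 2473 CPM in CC cultures. MET6 makes up much of each sum.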
